A study of Homo sapiens with 9 samples.

Results

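Expression of 9 transcription factor genes of the core pluripotency network, POU5F1, SOX2, NANOG, PRDM14, SALL4, ZFP42, FOXD3, ZIC2 and SALL2, was followed through DNA damage and through differentiation of human embryonic stem cells. Members were taken by name through every probe set that the platform annotation gives to exactly 1 gene, which yielded 16 probe sets of 8 genes out of 54675 probe sets in all. POU5F1 had no probe set of its own and was read from 1 probe set that it shares with its pseudogenes POU5F1P3 and POU5F1P4 and its retrogene POU5F1B. The cells were the WA09 line, an established human embryonic stem cell line, on 9 arrays of 1 colour. The 3 pluripotent arrays hold cells for which the labels give no treatment. For the 3 damage arrays the cultures spent 5 h in DOX, that is doxorubicin, a drug that traps topoisomerase II on broken DNA, whose dose is not stated in the sources used here. For the 3 differentiating arrays RA (retinoic acid, 1 µM) was present over 2 days and FGF was not added to the medium, so that effects of RA and of missing FGF cannot be told apart. All groups come from 1 line, and the labels do not say which arrays came from cultures on mouse feeder cells and which from feeder-free cultures.

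The network is best known for its core, in which the POU factor OCT4 (the product of POU5F1) and the HMG-box factor SOX2 bind paired DNA elements and, with the homeobox factor NANOG, activate their own genes and those of other stem cell regulators. PRDM14 is a PR-domain repressor that supports OCT4 transcription in human stem cells, SALL4 a zinc finger partner of OCT4 and NANOG, and ZFP42 (REX1) a zinc finger protein used as a marker of the undifferentiated state. FOXD3 is a forkhead factor of the epiblast that later acts in neural crest, ZIC2 a zinc finger factor of the primed state and of the early neural plate, and SALL2 a paralog of SALL4. In bulk RNA fewer cells that express a gene and less RNA per cell cannot be told apart.

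The sequences just before the start sites of 4 members are shown because they set the network's own genes beside those that were lower after both treatments. RefSeq promoter windows (build GRCh38.p14) were found for 6 members, and the 250 bases before the start site were searched on both strands for the octamer ATGCAAAT, its core ATGCAAA, the SOX element CATTGTT, its core CATTGT, the paired element (CATTGT, then any 1 base, then ATGCAAA, so that it contains both cores), the retinoic acid half-site AGGTCA and the E-box CACGTG. Each sequence runs 5′ to 3′ on the gene's strand, all 4 on the plus strand, with matches in capitals. NANOG lies at chr12:7789152-7789401, SOX2 at chr3:181711675-181711924, FOXD3 at chr1:63322317-63322566 and ZIC2 at chr13:99981534-99981783.
NANOG: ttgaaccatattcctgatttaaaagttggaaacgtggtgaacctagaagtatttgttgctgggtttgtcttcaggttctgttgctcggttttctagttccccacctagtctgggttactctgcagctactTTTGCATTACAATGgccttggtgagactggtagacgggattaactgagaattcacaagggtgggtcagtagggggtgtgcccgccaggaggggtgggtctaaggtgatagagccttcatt
SOX2: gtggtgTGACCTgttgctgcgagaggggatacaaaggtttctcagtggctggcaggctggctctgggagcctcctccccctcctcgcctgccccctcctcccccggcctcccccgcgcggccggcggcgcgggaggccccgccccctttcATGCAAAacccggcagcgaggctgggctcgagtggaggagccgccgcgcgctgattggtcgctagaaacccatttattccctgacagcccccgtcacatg
FOXD3: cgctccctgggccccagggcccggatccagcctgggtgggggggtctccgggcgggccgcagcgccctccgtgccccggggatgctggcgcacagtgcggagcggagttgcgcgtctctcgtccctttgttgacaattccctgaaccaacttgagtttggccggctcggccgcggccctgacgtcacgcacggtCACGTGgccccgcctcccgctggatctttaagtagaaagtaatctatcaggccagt
ZIC2: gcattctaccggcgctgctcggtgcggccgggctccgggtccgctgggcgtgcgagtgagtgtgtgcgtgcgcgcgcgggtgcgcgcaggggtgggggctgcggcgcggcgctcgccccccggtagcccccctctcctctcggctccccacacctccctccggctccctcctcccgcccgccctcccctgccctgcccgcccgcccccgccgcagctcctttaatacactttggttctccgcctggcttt
The NANOG window holds the paired SOX and octamer element on the minus strand, from base -120 to base -107 counted from the start site, and 2 of all 35116 RefSeq windows of this length hold that element (0.0057%). This element, the octamer core and the SOX core were added to the search after the sequences were seen. Their shares are therefore no measure of how unusual a match in a member is. SOX2 has an octamer core from base -100 to base -94, a match that 3.94% of all windows share, and a half-site AGGTCA on the minus strand, which 12.1% share. FOXD3 has an E-box from base -56 to base -51, a motif found in 6.34% of all windows. The window of ZIC2 held 0 of the 7 motifs, and 75.6% of its bases are G or C. The full octamer ATGCAAAT was found in 1.63% and the SOX element CATTGTT in 2.87% of all windows, and in no window of the 6 members. SALL2 has a SOX core CATTGT, which 9.29% of windows hold, and ZFP42 has none of the 7 motifs. These matches describe letters in the windows, not occupied sites.

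Values are log2 intensities per probe set, each normalised by the authors, and levels of different probe sets are not comparable. Array medians lay between 4.62 and 4.68, arrays of 1 group correlated across genes at 0.996 to 0.998, and the third pluripotent array stood apart, with a limma array weight of 0.58 where the others ranged from 0.69 to 1.47. The 3′ minus 5′ difference of the control probe sets, a sign of RNA quality, was 0.13 to 0.21 for GAPDH over all arrays, and for ACTB it was 0.63 to 1.09 on the pluripotent, 0.67 to 0.81 on the damage and 0.83 to 1.54 on the differentiating arrays; its part in the results was not tested. The 8 measured stem cell markers, among them LIN28A, DNMT3B, L1TD1 and PODXL, averaged 12.48 to 12.53 on the pluripotent arrays, 12.38 to 12.44 on the damage arrays and 12.54 to 12.63 on the differentiating arrays, with 0 of 8 below the median probe set (4.66) in any group. Against the pluripotent arrays 1 of these 8 was called, TERF1, lower after both treatments. Among all genes 12.1% were called after DOX and 4.84% after RA. Between RA and DOX 4 of the 8 were higher after RA, beside 10.7% of all genes. They were DNMT3B (0.31, adjusted p = 0.012), L1TD1 (0.36, adjusted p = 0.016), LIN28A (0.35, adjusted p = 0.036) and PODXL (0.27, adjusted p = 0.036). DNMT3B kept its call without any 1 array, but without any 1 damage or differentiating array 1 to 2 of the 8 were higher. The labels do not say that arrays of a group came from separate cultures. The p-values set group differences against the spread between these arrays, and that spread may be technical. Changes are on the log2 scale with limma's standard error, p-values come from limma and were adjusted by the Benjamini-Hochberg method across 54613 probe sets, and a gene is represented by its brightest probe set unless stated. "Fell" and "rose" mark an adjusted p under 0.05. The number of arrays limits the precision.

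**Figure D1:**
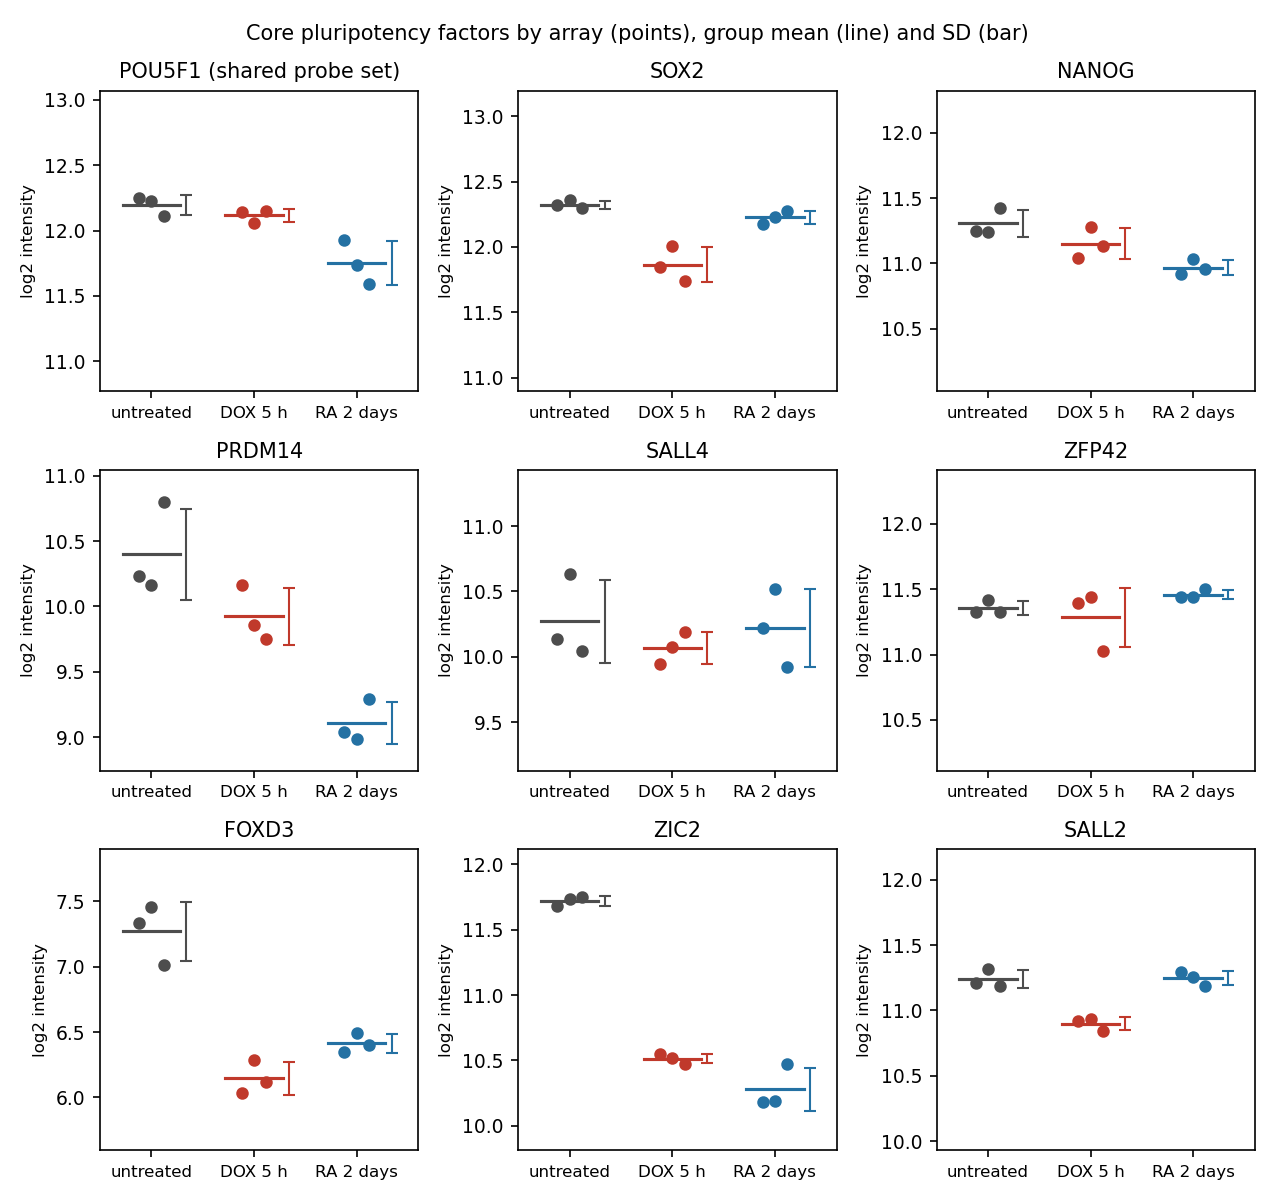
Log2 intensity (vertical axis, each panel spanning the same range) of the brightest probe set of each member on 9 arrays, grouped as untreated (pluripotent), DOX 5 h (damage) and RA 2 days (differentiating). Points are arrays, lines are group means and bars are SDs (n = 3). ZIC2 and FOXD3 lie lower after both treatments, PRDM14 lies lowest after RA, and SOX2 and SALL2 lie lowest after DOX.

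After 5 h of DOX 4 of the 8 members with a probe set of their own fell, namely ZIC2, FOXD3, SOX2 and SALL2, and 0 of 8 rose, also at an unadjusted limma p under 0.05. Among the brightest probe sets of all 19775 genes 12.1% passed the test after DOX, 7.40% in the lower and 4.67% in the higher direction. That share includes dim genes, whereas 0 of the 8 members lay below the median probe set in any group. In a fit of only the 27306 probe sets above the median level 17.2% were called after DOX. On the scale of every probe set 7 of the 16 of the members fell and 0 rose, against 7.71% of all probe sets called in either direction and 4.52% called lower. The 7 include repeat probe sets of SOX2 and are not separate genes. The damage and pluripotent arrays did not overlap for 4 of the 8 members, beside 28.9% of genes. The median change of the 8 members was -0.40, beside -0.0047 for all genes.

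ZIC2 had the largest change among the members. Its log2 intensity was 11.68, 11.74 and 11.75 on the pluripotent arrays and 10.55, 10.52 and 10.48 on the damage arrays. The groups lie far apart, and neither varies by more than a small part of that distance (SD 0.036 and 0.037, n = 3 each). ZIC2 fell 2.31-fold (log2 change -1.21 ± 0.09 SE, adjusted p = 1.1e-05), which ranks 25 from the lowest of 19775 genes. A protein-coding neighbour in RefSeq is its own relative ZIC5, which fell by 0.56 (SE 0.14, adjusted p = 0.030) and whose levels of 4.25 to 4.41 on the pluripotent arrays lie below the median probe set. ZIC5 was no longer called without the first or second pluripotent array, or without the first or the third damage array, whereas ZIC2 was called in all 19 alternatives run.

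FOXD3 showed a change of similar size. Its log2 intensity was 7.33, 7.46 and 7.02 on the pluripotent arrays and 6.03, 6.28 and 6.12 on the damage arrays, so the groups do not overlap. It fell 2.18-fold (-1.12 ± 0.11 SE, adjusted p = 1.4e-04). The 2 other FOXD3 probe sets had mean levels of 3.86 and 3.73 on the pluripotent arrays, below the median probe set, and changed by -0.09 (adjusted p = 0.61) and -0.38 (adjusted p = 0.11). The value therefore rests on 1 of 3 probe sets, and with the mean of the 3 the change was -0.53 (adjusted p = 0.0022).

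SOX2 was lower on 3 of its 4 probe sets. The brightest read 12.32, 12.36 and 12.29 on the pluripotent arrays and 11.85, 12.00 and 11.74 on the damage arrays. All damage arrays lie below all pluripotent arrays, and the fall was 1.37-fold (-0.46 ± 0.08 SE, adjusted p = 0.0055). The second and the third probe sets, with different levels of 10.13 and 8.08 on average on the pluripotent arrays, fell by 0.50 (adjusted p = 0.0047) and 0.44 (adjusted p = 0.015). The fourth lay near the median probe set at 4.80 and changed by 0.05 (adjusted p = 0.84). The third lost its call without the second pluripotent array (adjusted p = 0.061) and without the first damage array (adjusted p = 0.051).

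SALL2 read 11.21, 11.32 and 11.19 on the pluripotent arrays and 10.92, 10.93 and 10.84 on the damage arrays. The groups do not overlap, but the difference is small, and SALL2 fell 1.27-fold (-0.34 ± 0.07 SE, adjusted p = 0.015). The call was lost without the second pluripotent array (adjusted p = 0.074) and without the third damage array (adjusted p = 0.053).

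Of the 2 probe sets of NANOG, 1 was called after DOX. The brighter one read 11.25, 11.24 and 11.43 on the pluripotent arrays and 11.05, 11.28 and 11.13 on the damage arrays. These groups overlap, and the change was -0.15 with a 95% confidence interval of -0.35 to 0.04 (adjusted p = 0.38). The other read 8.16, 8.21 and 8.05 on the pluripotent arrays and 7.80, 7.68 and 7.66 on the damage arrays, and it fell 1.35-fold (-0.43 ± 0.08 SE, adjusted p = 0.0075). That probe set does not overlap between groups and was called in all 17 alternatives that held it. Which part of the NANOG transcript each probe set covers is not given in the sources used here. The mean of the 2 probe sets changed by -0.29 (adjusted p = 0.0060).

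PRDM14, the repressor upstream of OCT4, read 10.23, 10.16 and 10.80 on the pluripotent arrays and 10.17, 9.86 and 9.75 on the damage arrays. The groups overlap by 1 damage array, and the change of -0.47 ± 0.17 SE did not pass the test (adjusted p = 0.14). Without the third pluripotent array, the highest of all, the change was -0.27 (adjusted p = 0.28).

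The other members gave no call after DOX. SALL4 read 10.14, 10.64 and 10.05 on the pluripotent arrays and 9.94, 10.07 and 10.19 on the damage arrays, a change of -0.20 with an interval of -0.58 to 0.18 (adjusted p = 0.59). Its arrays varied more than those of most members, and without the second pluripotent array the change was -0.02 (adjusted p = 0.97). ZFP42 read 11.33, 11.42 and 11.32 against 11.39, 11.44 and 11.02, a change of -0.07 with an interval of -0.30 to 0.16 (adjusted p = 0.78). Its other 2 probe sets changed by 0.01 and -0.05, so the 3 probe sets of ZFP42 gave like values. The shared probe set of POU5F1 read 12.25, 12.23 and 12.11 on the pluripotent arrays and 12.14, 12.06 and 12.15 on the damage arrays, a change of -0.08 with an interval of -0.28 to 0.12 (adjusted p = 0.72). A change of the size seen for SOX2 lies outside that interval. This holds for the shared probe set, on which POU5F1 cannot be separated from its pseudogenes or POU5F1B.

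**Figure D2:**
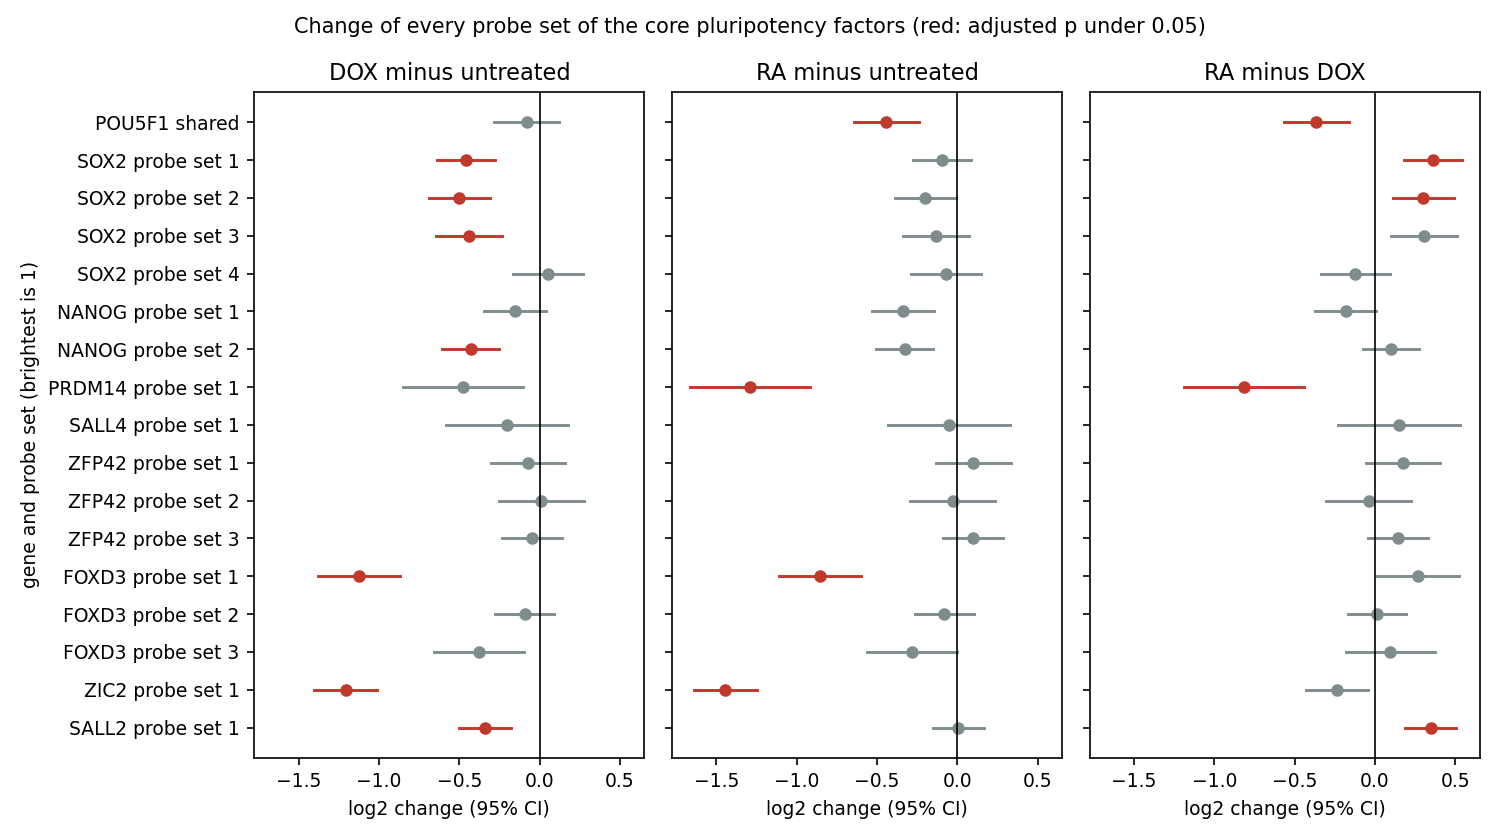
Log2 change (horizontal axis, point) with its 95% confidence interval (line) for all 17 probe sets of the members in 3 comparisons, from limma. Red marks an adjusted p under 0.05. After DOX 7 probe sets with 1 gene are red, all to the left of 0, and after RA 3 such probe sets and the shared probe set of POU5F1 are red.

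After 2 days of RA 3 of the 8 members with a probe set of their own fell, namely ZIC2, PRDM14 and FOXD3, and 0 of 8 rose, also at an unadjusted limma p under 0.05. Among all genes 4.84% passed the test, 2.43% in the lower and 2.42% in the higher direction. In the fit of only the probe sets above the median level 6.93% were called after RA. On the scale of every probe set 3 of the 16 fell and 0 rose, against 2.95% of all probe sets called in either direction and 1.48% called lower. The 3 values after RA lay apart from the 3 untreated values in 6 of the 8 members, a state seen in 22.6% of genes. Of these 6, ZFP42 lay above the untreated values, on only the brightest of its 3 probe sets, and the others below. The median change of the members was -0.22, beside -0.0041 for all genes. Both comparisons share the pluripotent arrays, so their values are given side by side and not correlated.

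ZIC2 again had the largest change. It read 10.18, 10.19 and 10.47 on the differentiating arrays, all below the 11.68 to 11.75 of the pluripotent arrays. The fall was 2.72-fold (-1.44 ± 0.09 SE, adjusted p = 5.8e-06), which ranks 31 from the lowest of 19775 genes. The value without any 1 array stayed between -1.54 and -1.39. ZIC5 changed by -0.43 (SE 0.14, adjusted p = 0.17) and did not pass the test.

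PRDM14 read 9.04, 8.99 and 9.29 on the differentiating arrays, where the pluripotent arrays read 10.16 to 10.80. The groups do not overlap, and PRDM14 fell 2.45-fold (-1.29 ± 0.17 SE, adjusted p = 0.0015). The change was -1.09 (adjusted p = 0.0020) without the third pluripotent array, so the call did not rest on that high array. PRDM14 was called in all 19 alternatives run.

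FOXD3 read 6.35, 6.50 and 6.40 on the differentiating arrays and fell 1.81-fold (-0.86 ± 0.11 SE, adjusted p = 0.0018). All 3 lie below the lowest pluripotent array at 7.02. The 2 dim probe sets changed by -0.08 (adjusted p = 0.80) and -0.28 (adjusted p = 0.39), and with the mean of the 3 probe sets the change was -0.41 (adjusted p = 0.020).

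POU5F1 and NANOG, both of the core, lay lower after RA by smaller amounts. The shared probe set of POU5F1 read 11.92, 11.74 and 11.59 on the differentiating arrays, below all pluripotent arrays, and fell 1.36-fold (-0.44 ± 0.09 SE, adjusted p = 0.026). Signal from its pseudogenes or POU5F1B cannot be separated from POU5F1 on this probe set. The call was lost without the first or second pluripotent array (adjusted p = 0.11 and 0.098), without the second or the third differentiating array (adjusted p = 0.093 and 0.092), and when the damage arrays were left out of the fit (adjusted p = 0.073). NANOG read 10.92, 11.03 and 10.96 on its brighter probe set and 7.85, 7.88 and 7.71 on the other, below all pluripotent arrays on both. The changes of -0.34 ± 0.09 SE (adjusted p = 0.074) and -0.33 ± 0.08 SE (adjusted p = 0.059) were alike in size and missed the threshold. NANOG passed it in 4 of 19 alternatives, with adjusted p from 0.0051 to 0.22. These took the brighter probe set, except for a fit of the mean of both.

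SOX2, SALL2, SALL4 and ZFP42 gave no call after RA. SOX2 read 12.18, 12.23 and 12.27, just below the pluripotent arrays, a change of -0.10 with an interval of -0.28 to 0.08 (adjusted p = 0.74). Its 3 other probe sets changed by -0.20, -0.13 and -0.07. SALL2 read 11.29, 11.26 and 11.19, overlapping the pluripotent arrays, with a change of 0.0060 and an interval of -0.15 to 0.17 (adjusted p = 0.99). SALL4 read 10.22, 10.52 and 9.92, with a change of -0.05 and an interval of -0.43 to 0.33 (adjusted p = 0.95). ZFP42 read 11.44, 11.44 and 11.50, just above the pluripotent arrays, with a change of 0.10 and an interval of -0.13 to 0.33 (adjusted p = 0.80). The other 2 probe sets of ZFP42 overlapped the pluripotent arrays and changed by -0.03 and 0.10.

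**Figure D3:**
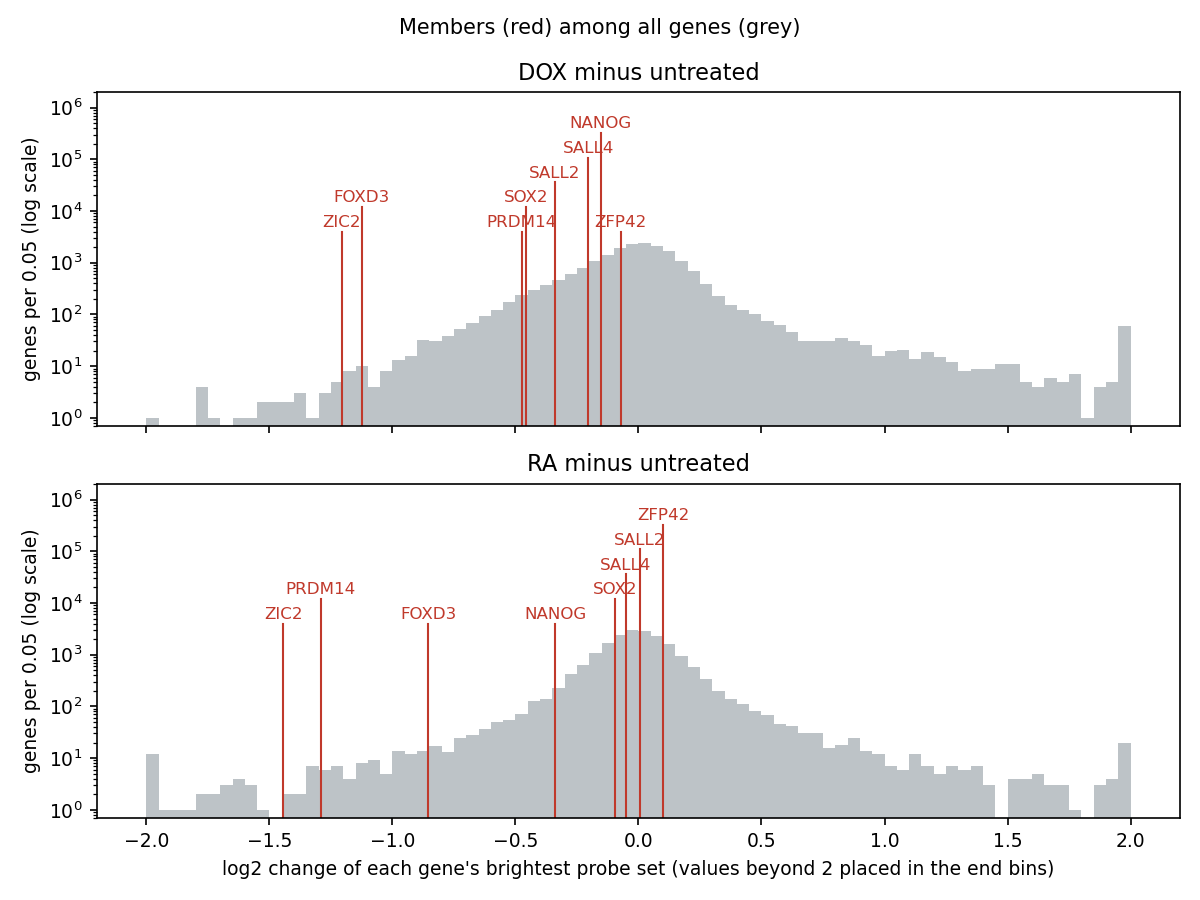
Number of genes (vertical axis, log scale) per 0.05 of log2 change (horizontal axis) of each gene's brightest probe set, grey, for DOX and for RA against the pluripotent arrays, with the 8 members in red. ZIC2 and FOXD3 lie in the lower tail after DOX and ZIC2, PRDM14 and FOXD3 after RA, while SALL4 and ZFP42 lie in the bulk of both distributions.

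The direct comparison of RA with DOX tests whether the responses differed. DOX lasted 5 h and RA 2 days, so effects of the agent and of its duration cannot be told apart here. Of the 8 members, SOX2 and SALL2 were higher and PRDM14 was lower on the differentiating arrays than on the damage arrays, where 18.0% of all genes were called in either direction, 10.7% higher and 7.26% lower. In the fit of only the probe sets above the median level 25.4% were called between RA and DOX. On the scale of every probe set 3 of the 16 were higher and 1 was lower, beside 12.2% of all probe sets called, 7.11% higher and 5.13% lower. The 3 higher ones include repeat probe sets of SOX2. The arrays of the treatments did not overlap for 6 of the 8 members, beside 34.8% of genes. PRDM14 was 1.76-fold lower after RA (-0.82 ± 0.17 SE, adjusted p = 0.0087), and its 3 differentiating arrays lie below its 3 damage arrays. SALL2 was 1.27-fold higher (0.35 ± 0.07 SE, adjusted p = 0.0091) and SOX2 1.29-fold higher (0.36 ± 0.08 SE, adjusted p = 0.013). For SOX2 the adjusted p was 0.051 without the third differentiating array. The second SOX2 probe set was higher by 0.30 (adjusted p = 0.045) but kept its call in 6 of 17 alternatives, and the third was at 0.30 (adjusted p = 0.060). The shared probe set of POU5F1 was lower after RA than after DOX (-0.36 ± 0.09 SE, adjusted p = 0.025), a call lost without the first or the third damage array (adjusted p = 0.068 and 0.075) or the second or the third differentiating array (adjusted p = 0.077 and 0.092).

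The genes that fell after both treatments were not shown to differ between them. ZIC2 differed by -0.24 with an interval of -0.43 to -0.04 (adjusted p = 0.12), although its 3 differentiating arrays lie just below its 3 damage arrays. Without the third differentiating array the difference was -0.33 (adjusted p = 0.024). FOXD3 differed by 0.27 with an interval of 0.02 to 0.52 (adjusted p = 0.18). NANOG differed by -0.18 on the brighter probe set (adjusted p = 0.23) and 0.10 on the other (adjusted p = 0.52), SALL4 by 0.15 (adjusted p = 0.67) and ZFP42 by 0.17 (adjusted p = 0.37).

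Of 13 measured relatives of the members in the same gene families 2 fell and 1 rose after DOX, where 12.1% of all genes were called, and 0 fell and 1 rose after RA, where 4.84% were called, with 3 lower after RA at an unadjusted limma p under 0.05 (FOXD1, SALL3 and ZIC5). After DOX 1 relative fell in each fit in which ZIC5 was not called, and 2 rose without the second damage or the second differentiating array, where ZIC1 was called. Without the first differentiating array ZIC5 was called lower after RA, so that 1 fell. SALL3, a paralog of SALL2 and SALL4, fell by 0.66 after DOX (SE 0.12, adjusted p = 0.0068) and changed by -0.32 after RA (adjusted p = 0.27). SALL1, another paralog, read 9.01 to 9.16 on the pluripotent arrays and 9.49 to 9.77 on the differentiating arrays and rose by 0.52 (adjusted p = 0.0071), with a change of -0.17 after DOX (adjusted p = 0.31). FOXD1, a forkhead relative of FOXD3 that is best known from kidney and retina, rose by 1.43 after DOX (adjusted p = 0.0027) while FOXD3 fell. SOX3, the relative of SOX2 in the same SOX subgroup, changed by -0.34 after DOX and 0.11 after RA, neither past the threshold (adjusted p = 0.28 and 0.87).

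Other transcription factors of the network moved in both directions. Of 21 measured, 4 rose and 1 fell after DOX, where 12.1% of all genes were called. After RA 3 rose and 4 fell, where 4.84% of all genes were called. After DOX the rising genes were SMAD3 (1.27), which relays activin and NODAL signals, the ETS factor gene ETV5 (1.24), KLF5 (1.02) and MYC (0.67), with adjusted p-values of 1.2e-05 to 0.0039. FOXH1, the forkhead partner of SMAD proteins and the 1 gene that fell (named after its values were seen), changed by -0.47 (adjusted p = 0.0048). Without the second pluripotent array NR5A2 also fell after DOX, and without the third differentiating array OTX2 did, which makes 2 genes lower in each case. After RA the homeobox gene OTX2 read 8.83, 8.95 and 9.62 where the pluripotent arrays read 10.58 to 10.81, and it fell by 1.56 (adjusted p = 4.4e-04). MYC fell by 0.96 after RA, in the direction opposite to its rise after DOX (difference RA minus DOX -1.64, adjusted p = 4.0e-06). NR5A2, a nuclear receptor that can stand in for OCT4 in reprogramming, rose by 0.85 from a mean of 4.01, below the median probe set, and MYCN by 0.66. The remaining calls, named after their values were seen because they are few, were KLF4 (-0.58), TCF7L1 (-0.56) and ZNF281 (0.44), of which KLF4 lost its call without any 1 of the differentiating arrays or the first or second pluripotent array. ZNF281 lost its call without the first or the third pluripotent array or the second or the third differentiating array. In these fits 2 genes rose after RA, except without the third differentiating array, where ETV5 was called and 3 rose.

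Genes known as targets of OCT4, SOX2 and NANOG were likewise divided. Of 18 measured, 3 rose and 4 fell after DOX, where 12.1% of all genes were called. After RA 3 rose and 5 fell, where 4.84% of all genes were called. The medians after DOX and RA were -0.11 and -0.01, beside -0.0047 and -0.0041 for all genes. POLR3G, a subunit of RNA polymerase III that marks stem cells, fell by 0.69 after DOX (adjusted p = 0.0015) and by 0.87 after RA (adjusted p = 5.5e-04). TERF1, a telomere protein gene, fell by 0.42 and 0.46 (adjusted p = 0.0063 and 0.0072). FGF4, whose enhancer carries a classical OCT4 and SOX2 element, fell by 0.85 after DOX and rose by 1.88 after RA, and the difference between RA and DOX was 2.72 (adjusted p = 5.3e-07). DPPA2, like JARID2 named after its values were seen, showed the same order, -0.57 after DOX and 0.48 after RA (difference 1.05, adjusted p = 9.7e-05), although its call after RA was lost without any 1 array, which left 2 genes higher in 8 of the 9 such fits. NODAL and GAL ran the other way, at 0.90 and 0.49 after DOX and -1.31 and -0.67 after RA. FGF2 rose by 0.90 after DOX, and LEFTY1 fell by 2.63 and JARID2 rose by 0.86 after RA.

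**Figure D4:**
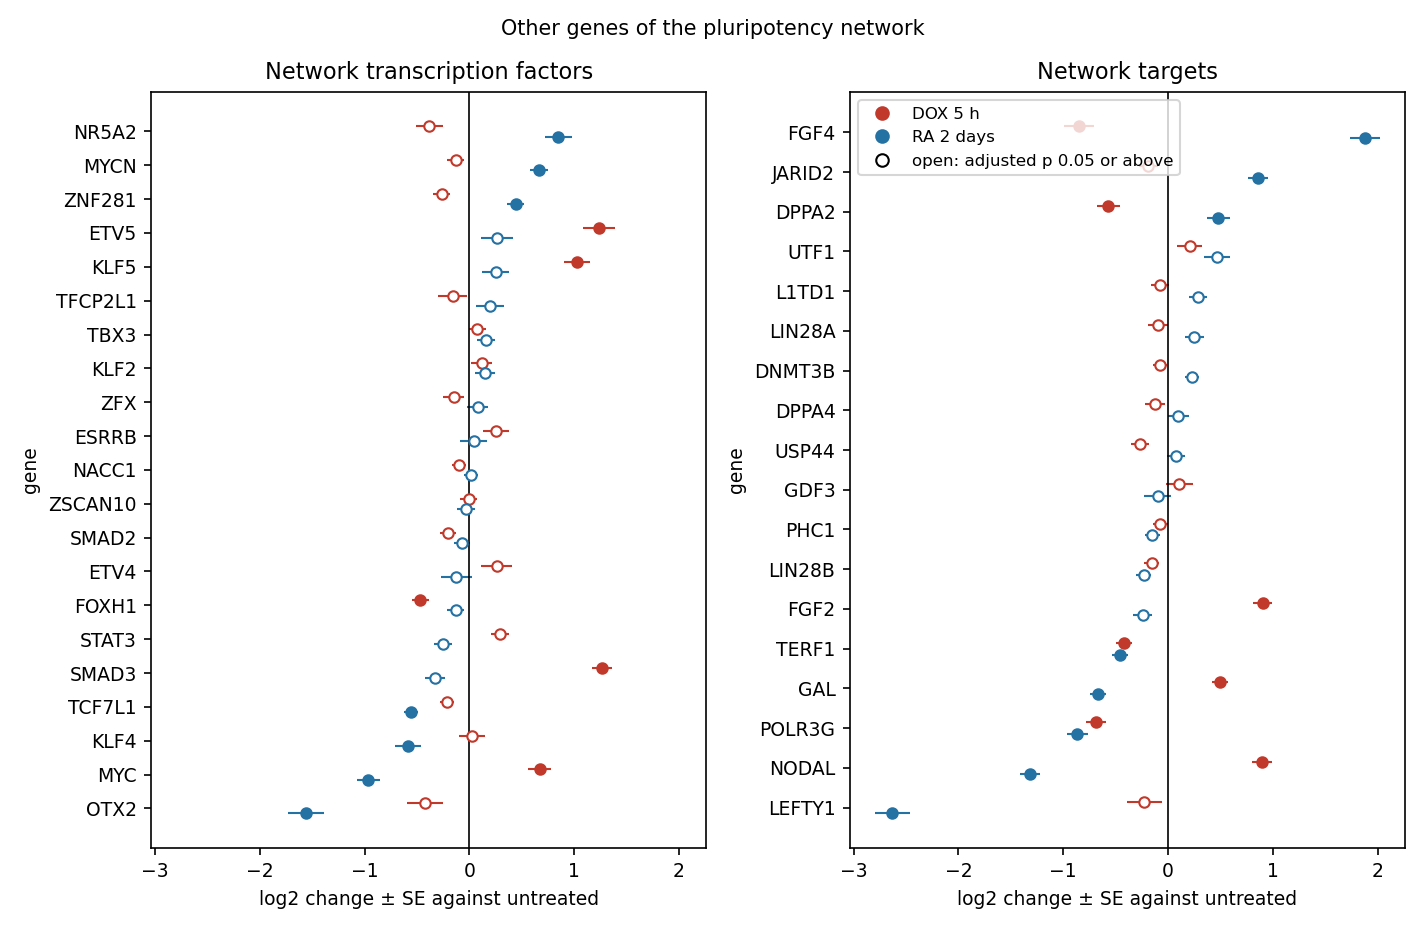
Log2 change against the pluripotent arrays (horizontal axis, point with SE) after DOX (red) and RA (blue) for 21 other transcription factors of the network and 18 target genes (vertical axis, ordered by the change after RA). Filled points have an adjusted p under 0.05, and FGF4, DPPA2, MYC, NODAL and GAL have filled points on opposite sides of 0.

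Markers of other cell types were measured beside these values. Among all genes 12.1% were called after DOX, 4.67% higher, and 4.84% after RA, 2.42% higher. Of 8 amnion and surface ectoderm genes 3 rose after DOX and 4 after RA, with 0 lower by limma. At an unadjusted limma p under 0.05 it was 0 lower after DOX and 1 after RA (KRT7). These 8 genes averaged 4.76 to 4.79 on the pluripotent arrays, 5.12 to 5.33 on the damage arrays and 5.88 to 6.16 on the differentiating arrays. TFAP2A was at 0.85 after DOX and 4.55 after RA, GATA3 at 1.34 and 3.20 and GATA2 at 0.87 and 1.11. ISL1 was at 0.80 after RA and was the fourth gene called, a call lost in 7 of the 9 fits without 1 array. HAND1 was at 0.45 after DOX (adjusted p = 0.32) and 0.90 after RA (adjusted p = 0.067), and without the third differentiating array it was called after RA, which made 5 genes higher. CDX2, TFAP2B and KRT7 passed the test in neither comparison. Of 8 mesoderm and endoderm genes 0 were called in either comparison, by limma, and at an unadjusted p under 0.05 it was 1 after DOX (EOMES, at 0.29) and 0 after RA. Of 6 neuroectoderm genes NES was at 0.94 after DOX and -0.76 after RA, and PAX6, SOX1, LHX2, SIX3 and HES5 gave no call. At an unadjusted limma p under 0.05 SIX3 was higher after both treatments (0.59 and 0.62) and PAX6 lower after RA (-0.30). SIX3 lay below the median probe set in every group. Of 10 fibroblast markers COL1A1 rose after both treatments (1.08 and 1.00), COL3A1 rose after RA (0.57, a call lost without the second pluripotent array), PDGFRA fell after DOX (-0.42) and COL6A3 fell after RA (-0.73). The fibroblast list averaged 5.57 to 5.66, 5.71 to 5.77 and 5.62 to 5.68 on the pluripotent, damage and differentiating arrays. On the pluripotent arrays 4 of its 10 markers, DCN, LUM, POSTN and FAP, lay below the median probe set, and the others did not. The part of other cells in the changes of the members was not tested.

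By the pair of log2 changes, after DOX and after RA, the genes nearest to each called member among all 19775 were listed, as a measure of likeness that rests on 9 arrays and shares the pluripotent arrays. Nearest to ZIC2 were NPFFR2 (distance 0.21), GLCE (0.25) and PRICKLE1 (0.35). Nearest to FOXD3 were SMARCA2 (0.045), SLC6A15 (0.057) and TOX (0.11). Nearest to PRDM14 were FLT1 (0.11), TNMD (0.12) and FEZ1 (0.21). ZIC2 and PRDM14 thus had 0 genes within a distance of 0.1 and FOXD3 had 2, whereas SOX2 had 302 and SALL2 587. Of those, HMG20B, CMTM4 and CHEK2 were nearest to SOX2, and RASSF4, SNW1 and CHST6 to SALL2. After DOX SNW1 was called (adjusted p = 0.015) and RASSF4 and CHST6 were not (adjusted p = 0.094 and 0.092). Most genes changed little, so members with larger changes have fewer genes near them, and the counts are no separate sign of likeness.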

How the data were processed

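RNA of 9 samples was measured on Affymetrix arrays. The authors deposited log2 intensities per probe set, made by RMA with the affy package per the submitters' processing notes, and no version is given in the sources used here. This method corrects background, quantile-normalises across arrays and summarises probes, which compresses changes of dim probe sets, and it assumes that most RNA levels are shared between groups. Of 54675 probe sets, 62 controls were left out. The platform annotation gave 41091 probe sets 1 gene, 1801 several and 11721 none, so 19775 genes had a probe set of their own.

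The 9 arrays were fitted as 3 groups of 3 with limma 3.58.1 in R 4.3.3, with no covariate and 6 residual degrees of freedom. P-values were adjusted by Benjamini-Hochberg over 54613 probe sets and a probe set was called at adjusted p under 0.05. Each gene was represented by its brightest probe set, by the mean of all 9 arrays. The fit was tested on simulated data. The members, gene lists and tests were chosen with earlier results of these data known. Text names all members, up to 4 genes of a list with the largest absolute change in each comparison, and the 3 nearest genes of each called member; others named are marked, or are markers without a call. Of the 7 motifs, the octamer core, the SOX core and the paired element were added after the sequences were seen. Alternatives changed the probe set unit, the probe set types, the filter on dim probe sets, the spread model, the arrays fitted, the scaling, array weights and the replicate block, and left out each array in turn. RefSeq promoter windows (GRCh38.p14) were matched by symbol. The promoter of PRDM14 was not used here.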

Additional observations from a re-analysis of the deposited data

How the results depend on the processing

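With 3 arrays a group, small changes are limited by the spread between arrays, and dim probe sets (2 of FOXD3, 1 of SOX2) bear little on the calls. Over the 19 alternatives the count of members lower stayed at 3 to 5 after DOX and 3 to 4 after RA, with 0 higher in each. Between RA and DOX, 1 member was higher (of 7 measured) without x_at and s_at probe sets, where SALL2 has no probe set left, and 2 were lower with a trended and robust spread. Leaving out 1 array gave 1 to 2 higher and 1 to 2 lower in that comparison; without the third differentiating array SOX2 lost and ZIC2 gained a call. Signs turned only for changes that were not called: ZFP42 was at 0.010 (DOX), -0.029 (RA) and -0.039 (RA minus DOX) without x_at and s_at probe sets, and SALL2 after RA was at -0.0091 with centred arrays and -0.0042 with array weights. Leaving out 1 array gave -0.15 to 0.057 for ZFP42 after DOX, -0.20 to 0.13 for SALL4 after RA and -0.020 to 0.046 for SALL2 after RA. The causes were not tested. Further scaling moved the median change of all probe sets by at most 0.031. Called probe sets after DOX numbered 4211, but 2597 and 2611 without the first or second pluripotent array and 4748 without the third. After RA they numbered 1611, but 1071, 1043 and 1039 without the first pluripotent or the first or second differentiating array. Same-numbered arrays correlated at -0.10 to 0.20 in their deviations from the group means, and arrays of different number and group at -0.25 to 0.13. Of the 9 arrays, 4 correlated best with their own number in both other groups. These values do not settle whether same-numbered arrays are pairs, and the main fit took them as unpaired. With the replicate block 4 members fell after DOX, 3 fell after RA, and 2 were higher and 1 lower between RA and DOX; the second SOX2 probe set lost its call there (adjusted p = 0.062) and the third gained one (adjusted p = 0.026).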
